A study of Mus musculus with 32 samples.

Results

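The data below concern 10 genes used as markers of border-associated macrophages and of monocytes: *Ms4a7*, *Mrc1*, *Cd163*, *Lyve1*, *Pf4* and *F13a1* for the former, and *Ccr2*, *Ly6c2*, *Vcan* and *Plac8* for the latter. They were chosen by name, as known markers and with their levels in these libraries already seen, and no contrast or threshold of these data set the list. All 10 were found by symbol in each of the 3 count tables, which hold 74021 rows for the LAG-3-sorted microglia, 74016 for the microglia collected by stage and 74021 for the spinal cord. The question the levels bear on is whether transcripts of these genes in sorted microglia came with other transcripts of macrophages and monocytes or without them.

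LAG-3 is an inhibitory immune receptor, and the study followed it in mice carrying the human SOD1G93A transgene, a model of amyotrophic lateral sclerosis. In the first table, CD11b+/CD45int microglia from the lumbar cord of SOD1G93A mice were sorted into LAG-3-low and LAG-3-high fractions (5 libraries each; below, the low and the high fraction) and set beside microglia of wild-type (WT) mice, which were non-transgenic littermates (4 libraries). The methods place this sort at P140, and the age of the WT mice is not given in the sources used here. The second table holds CD11b+/CD45int microglia, not separated by LAG-3, of SOD1G93A/LAG-3+/+ and SOD1G93A/LAG-3-/- littermates at P120 and P140 (3 libraries in each of the 4 groups), and the third holds lumbar cord of the same pair of genotypes at P140 (3 libraries each). Every group apart from WT thus carried the SOD1G93A transgene, heterozygous in the breeding that the study describes. The LAG-3-/- allele, Lag3tm1Doi, is a germline disruption made with a 129 background and present in all cells, and the fractions are gates on 1 surface protein. The sources do not say whether a library came from 1 animal or whether equal replicate numbers of the fractions mark 1 animal, so the p-values measure the spread between these libraries.

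Border-associated macrophages live in the meninges, the perivascular spaces and the choroid plexus. They share an origin in the yolk sac with microglia, but keep high levels of scavenger and endocytic receptors that parenchymal microglia largely lack. Classical monocytes leave the bone marrow through CCR2, carry Ly6C on their surface, and give rise to macrophages in inflamed tissue. Several of these markers are not exclusive: neutrophils and their precursors also carry Ly6C and transcribe *Plac8*, platelets hold PF4, and oligodendrocyte precursors and astrocytes make versican.

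Library totals ran from 9403475 to 22850586 estimated counts in the LAG-3-sorted table, from 23981406 to 49512632 in the stage table and from 19430102 to 26994524 in cord. Levels are given as CPM, read counts relative to the library total after scaling by TMM factors within each table, so a level is not compared between tables. *Lag3* followed the labels: it stood at 146 to 195 CPM in the high fraction, 34.7 to 57.7 CPM in the low fraction and 0.506 to 9.97 CPM in WT microglia, and it was at most 0.461 CPM in the 6 LAG-3-/- microglial libraries against at least 24.4 CPM in the 6 LAG-3+/+ ones. In cord, *Lag3* was at 5.49 to 5.71 CPM in the LAG-3-/- libraries and 43.4 to 74.4 CPM in the LAG-3+/+ ones. A list of 9 homeostatic microglial genes summed to at least 13715 CPM in every sorted library. A list of 14 neutrophil genes, led by *Ngp* and *S100a8*, summed to between 6019 and 70351 CPM in the WT libraries and between 22987 and 67074 CPM in the low-fraction libraries, but to between 3.54 and 9.64 CPM in the high-fraction libraries. The microglial gate therefore gave libraries with and without neutrophil transcripts, and this split ran along the groups compared. In the stage table the same list ranged from 2.81 CPM to 4686 CPM, and in cord from 8.59 to 29.1 CPM. Its leading genes in cord were *Mmp9* and *Lcn2*.

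*Ly6c2* is described first because its counts depend on a near copy. It encodes the Ly6C surface protein of monocytes, while *Ly6c1*, its neighbour at a distance of 59.3 kb on chromosome 15, is typical of endothelial cells. The coding sequences of transcripts Ly6c2-201 and Ly6c1-201 (GENCODE, GRCm39) are both 396 bases long and differ at 9 positions, an identity of 97.7%, with 188 bases as the longest run that they share. The first 150 coding bases hold 6 of the differences, in capitals here, and show how little sequence separates the pair:
Ly6c2: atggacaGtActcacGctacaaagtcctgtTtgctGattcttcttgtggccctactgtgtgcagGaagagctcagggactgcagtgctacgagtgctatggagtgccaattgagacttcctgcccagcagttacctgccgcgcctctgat
Ly6c1: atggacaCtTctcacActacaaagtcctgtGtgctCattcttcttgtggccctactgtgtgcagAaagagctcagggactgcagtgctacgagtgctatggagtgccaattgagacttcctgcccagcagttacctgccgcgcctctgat
The estimated counts put nearly all of the microglial signal on *Ly6c2* and most of the cord signal on *Ly6c1*. *Ly6c1* was at most 0.368 CPM in any microglial library, and in cord it was at 23.8 to 24.2 CPM in the LAG-3+/+ and 25.3 to 33.0 CPM in the LAG-3-/- libraries. Reads that match both genes are divided by the quantifier's model, so the *Ly6c2* values in cord, where the other gene is far higher, are less certain than those in microglia.

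In the LAG-3-sorted microglia *Ly6c2*, *Plac8* and *Ccr2* were higher in every low-fraction library than in any high-fraction library. The remaining monocyte marker, *Vcan*, was at 0 in nearly all libraries of both fractions. *Ly6c2* (chromosome 15, 74980003 to 74988467, GRCm39) was at 90.7, 114, 129, 92.4 and 53.4 CPM in low-fraction replicates 1 to 5. WT replicates 1 to 4 had 20.1, 39.5, 28.9 and 44.9 CPM of it. All 5 high-fraction libraries held 0 counts of *Ly6c2*, which allows up to 0.212 CPM in the least deep of them. The 3 groups did not overlap. *Ly6c2* was at least 452-fold lower in the high than in the low fraction (adjusted p = 3.59e-06, edgeR quasi-likelihood test with Benjamini-Hochberg adjustment over all genes) and at least 157-fold lower than in WT microglia (edgeR adjusted p = 1.72e-06), both bounds taken against 3 counts per library. It was also higher in the low fraction than in WT (log2 fold change 1.52 with SE 0.37, edgeR adjusted p = 0.0192). Since the genes were named with these levels known, the adjusted p-values here and below describe the libraries and are not independent evidence.

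*Plac8*, a small cysteine-rich protein of myeloid cells, had a similar distribution at a lower level. Low-fraction replicates 1 to 5 held 39.7, 44.0, 29.9, 13.6 and 16.1 CPM, and WT replicates 1 to 4 held 0, 19.3, 9.75 and 0 CPM. In the high fraction it was at 0 in 4 libraries and at 0.123 CPM (2 counts) in replicate 3. The low fraction and WT overlapped, and the high fraction lay below every low-fraction library. The difference was at least 135-fold between the fractions (edgeR adjusted p = 0.0111) and at least 34.2-fold against WT (edgeR adjusted p = 0.00871), although 2 WT libraries were themselves at 0.

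*Ccr2*, the chemokine receptor by which monocytes enter tissue, was at 250.0, 170.1, 33.6, 47.9 and 123 CPM in low-fraction replicates 1 to 5. High-fraction replicates 1 to 5 had 5.73, 0.0666, 5.53, 3.96 and 1.69 CPM. In WT microglia it stood at 96.6 CPM in replicate 3 and at no more than 0.348 CPM in the other 3 libraries. The fractions did not overlap, yet the change missed the threshold when fitted beside the uneven WT group (log2 fold change -5.19, edgeR adjusted p = 0.140). It passed when the 2 fractions were fitted alone (log2 fold change -5.28, edgeR adjusted p = 0.000449) and when any 1 of the WT libraries was left out (edgeR adjusted p from 0.00766 to 0.0921). Against WT the sign of its change turned on replicate 3, from -2.84 with it to 4.18 without it on the log2 scale (edgeR adjusted p = 0.207 and 0.0290).

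*Vcan*, which encodes the matrix proteoglycan versican and is abundant in classical monocytes, was at 0 in 13 of the 14 sorted libraries and at 6.19 CPM (135 counts) in low-fraction replicate 1, the library with the most *Ccr2* and *F13a1*. It did not pass the filter on low counts in either microglial table and was not tested there. Per kilobase of exon, the mean level in the low fraction fell in the order *Ly6c2* (31.4 CPM per kb), *Ccr2* (18.5 CPM per kb), *Plac8* (6.51 CPM per kb) and *Vcan* (0.0749 CPM per kb).

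*F13a1* encodes the A chain of coagulation factor XIII, and both border macrophages and monocytes transcribe it. In the LAG-3-sorted libraries it went with the monocyte markers. Low-fraction replicates 1 to 5 had 233, 179, 41.7, 87.7 and 59.6 CPM, and high-fraction libraries had at most 0.184 CPM (3 counts). WT libraries had 152 CPM in replicate 3 and at most 0.380 CPM in the other 3. The fractions did not overlap, and *F13a1* was at least 566-fold lower in the high fraction (edgeR adjusted p = 0.0156). It was also lower in the high fraction than in WT, by at least 179-fold (edgeR adjusted p = 0.00913), but without WT replicate 3 the log2 fold change was -1.31 (edgeR adjusted p = 0.372). The ratio of *F13a1* to *Ccr2* counts was between 0.485 and 1.83 in the low-fraction libraries and 1.57 in WT replicate 3.

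**Figure D1:**
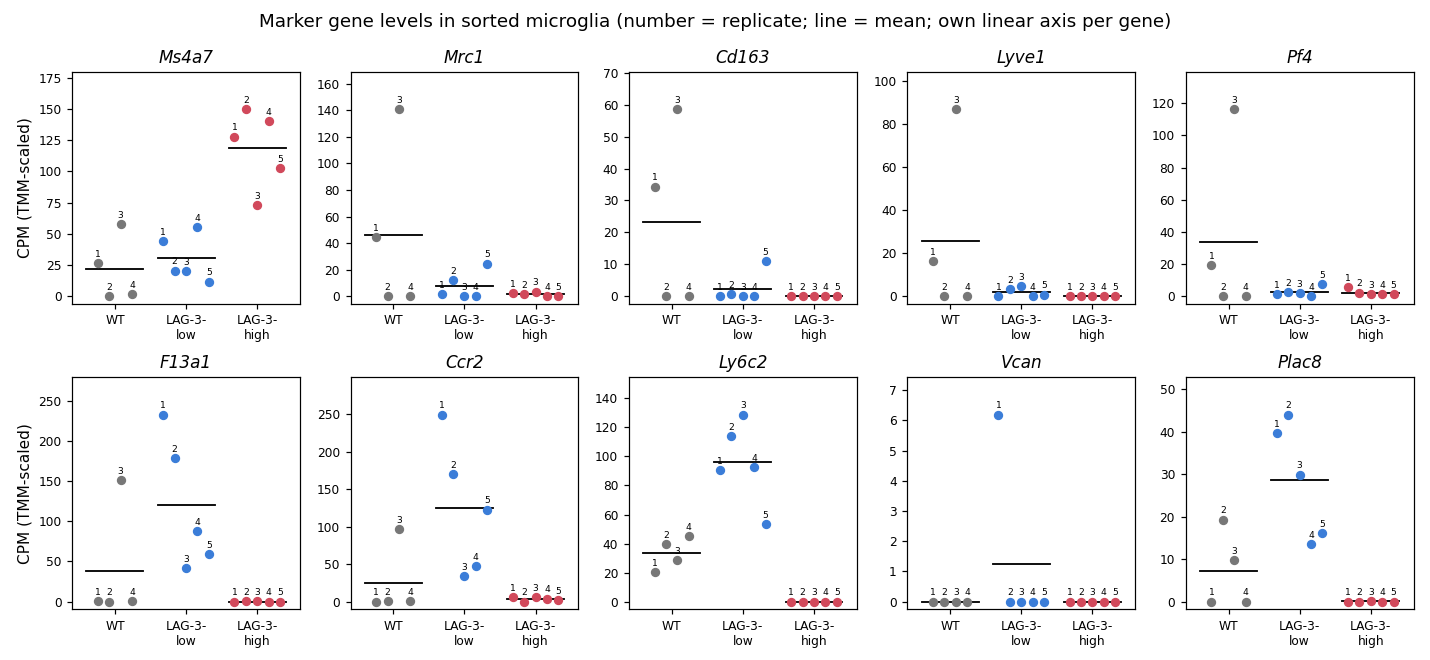
TMM-scaled CPM (vertical axes, linear, one scale per gene) of the 10 marker genes in WT, the low fraction and the high fraction, where each point is 1 library with its replicate number and the line is the group mean. *Ly6c2* and *F13a1* stay at 41.7 CPM or more in the low-fraction libraries and at or near 0 in the high-fraction libraries, *Ms4a7* has the opposite order, and *Mrc1*, *Cd163*, *Lyve1* and *Pf4* are highest in WT replicates 1 and 3.

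The remaining border macrophage markers were highest in 2 of the WT libraries. *Mrc1*, the mannose receptor CD206, was at 44.3, 0, 141 and 0 CPM in WT replicates 1 to 4. Low-fraction replicates had 1.74, 12.4, 0, 0 and 24.7 CPM, and high-fraction replicates 2.70, 1.86, 3.56, 0 and 0 CPM. *Mrc1* was not called in any comparison of the sorted groups, and WT alone spanned the range of the other groups.

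*Cd163*, the haemoglobin scavenger receptor, was at 34.3, 0, 58.5 and 0 CPM in WT replicates 1 to 4. In the low fraction it reached 11.1 CPM in replicate 5 and at most 0.825 CPM in the others, and all 5 high-fraction libraries held 0 counts of it. The same WT libraries held *Lyve1*, a hyaluronan receptor of perivascular macrophages and lymphatic vessels, at 16.2 and 86.9 CPM, and the other 2 WT libraries held 0 counts. *Lyve1* was at most 4.66 CPM in the low fraction and at 0 counts in all 5 high-fraction libraries.

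*Pf4*, the chemokine CXCL4 of platelets and of border macrophages, was at 19.7 CPM in WT replicate 1, 116 CPM in replicate 3 and 0 in the other 2. It was present in all 5 high-fraction libraries, at 1.13 to 5.51 CPM, and in 4 of 5 low-fraction libraries, at up to 7.79 CPM. A list of 10 platelet genes, led by *Gp9*, summed to 20.5 CPM in WT replicate 3, which had the most *Pf4*, and to 79.1 CPM in WT replicate 1. The part of platelets in the *Pf4* level was not tested.

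The high fraction was called lower than WT for *Cd163* (at least 109-fold, edgeR adjusted p = 0.0418) and *Lyve1* (at least 121-fold, edgeR adjusted p = 0.0299), although WT replicates 2 and 4 were at 0 as well. When WT replicates 1 and 3 were left out together, an alternative chosen after the values were seen, no count of either gene was left in the WT or high-fraction libraries. Where *Mrc1* and *Cd163* both exceeded 3 counts, the ratio of their counts was 1.29 in WT replicate 1, 2.40 in WT replicate 3, 2.22 in low-fraction replicate 5 and 15.1 in low-fraction replicate 2. In the cord libraries the same ratio ran from 1.36 to 2.85. The macrophage lectin gene *Mgl2* had the same uneven distribution, at 41.3 and 243 CPM in WT replicates 1 and 3, 0 in WT replicates 2 and 4, and 0 in all high-fraction libraries.

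*Ms4a7*, a membrane-spanning protein of the MS4A family and a marker that separates border macrophages from microglia in the healthy brain, differed from the other members. High-fraction replicates 1 to 5 had 128, 149.6, 72.7, 140.2 and 102 CPM. Low-fraction replicates had 43.9, 20.6, 20.2, 55.3 and 11.8 CPM, and WT replicates 26.7, 0, 58.1 and 1.52 CPM. Every high-fraction library was above every other sorted library. The mean level was 119 ± 31.2 CPM (SD, n = 5) in the high fraction, 30.4 ± 18.3 CPM (SD, n = 5) in the low fraction and 21.6 ± 27.3 CPM (SD, n = 4) in WT microglia. The difference between the fractions did not pass the threshold over all 14 libraries (log2 fold change 1.96 with SE 0.98, edgeR adjusted p = 0.467). It passed when the 2 fractions were fitted alone (log2 fold change 1.88, edgeR adjusted p = 0.00440). Against WT the log2 fold change was 2.45 with SE 1.09 (edgeR adjusted p = 0.120), and 3.67 without WT replicate 3 (edgeR adjusted p = 0.0430).

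The high-fraction libraries thus held *Ms4a7* at 72.7 CPM or more with *Cd163*, *Lyve1* and *Ly6c2* at 0 counts in 5 of 5 libraries and *Mrc1* at no more than 3.56 CPM. WT replicate 3, by contrast, had 58.1 CPM of *Ms4a7* together with at least 58 CPM of each of the other 5 border macrophage markers. A list of 9 disease-associated microglial genes, among them *Spp1* and *Apoe*, summed to 102759 to 130260 CPM in the high fraction, 26731 to 43354 CPM in the low fraction and 1920 to 6598 CPM in the WT libraries. The part of these microglial genes in the *Ms4a7* level was not tested.

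Of the 9 members tested in the LAG-3-sorted table, 3 were called lower in the high than in the low fraction, where 2.67% of all 16508 genes were called lower. edgeR called none higher, and 6 members had an unadjusted p under 0.05 in either direction, as did 1988 of all genes. A call needed an adjusted p under 0.1 and an absolute log2 fold change above 1. Against WT, 5 were called lower in the high fraction, where 14.9% of all genes were called lower. In the low fraction 1 of 9, *Ly6c2*, was called higher than in WT, where 10.9% of all genes were called higher. DESeq2 called 6 members between the fractions, all lower, where it called 5.98% of all genes. It called 7 between the high fraction and WT, of which *Ms4a7* was higher and 6 were lower, where it called 32.4% of all genes. Between the low fraction and WT it called *Ly6c2* higher and *Pf4* lower, where it called 28.5% of all genes. Fitted without the low-fraction libraries, 1 member, *Ly6c2*, was called between the high fraction and WT microglia, where 2663 of all 14374 genes were called.

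Of a wider list of 21 other monocyte genes tested, 12 were called lower and 0 higher in the high than in the low fraction. Over all genes, 2.67% were called lower and 0.818% higher there. The list had a median log2 fold change of -4.80 against -0.02 over all genes. *Hp*, *Ifitm6* and *Mgst1* were among the called genes of the list with the smallest adjusted p (edgeR adjusted p from 7.04e-06 to 0.000390). *Hp*, which encodes haptoglobin, was at 226 to 701 CPM in the low fraction and at most 0.123 CPM in the high fraction. Neutrophils also make haptoglobin. Against WT, 10 of the 21 were called higher and 0 lower in the low fraction (median 1.91 against 0.04). In the high fraction 6 were called higher and 11 lower (median -3.86 against -0.08). Over all genes, 10.9% were called higher and 11% lower in the low fraction. For the high fraction these shares were 12.1% and 14.9%. Fibronectin, *Fn1*, had the smallest adjusted p of the list between the low fraction and WT microglia, with 106 to 711 CPM against 2.17 to 30.8 CPM.

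Of 16 other border macrophage genes tested, 1 was called lower and 1 higher in the high than in the low fraction. Over all genes, 2.67% were called lower and 0.818% higher there. The list had a median log2 fold change of -0.22 against -0.02 over all genes. *Clec12a*, an inhibitory lectin of myeloid cells that neutrophils carry too, was at 45.8 to 153 CPM in the low fraction and 0 to 5.45 CPM in the high fraction (edgeR adjusted p = 0.00369). The scavenger receptor gene *Colec12* was at 43.8 to 119 CPM in the low fraction, 141 to 380.3 CPM in the high fraction and 4.78 to 26.4 CPM in WT microglia (edgeR adjusted p = 0.0551 between the fractions). Against WT, 12.1% of all genes were called higher and 14.9% lower in the high fraction. In the low fraction these shares were 10.9% and 11%. Of the 16 genes, 2 were called higher and 5 lower in the high fraction, and 2 higher and 2 lower in the low fraction. *Colec12* and the sialic acid receptor gene *Siglec1* were the higher ones in both, and the transcription factor gene *Maf* and *Stab1*, a scavenger receptor gene that microglia also express, were lower in both. A list of 6 dendritic cell genes summed to 159 CPM in low-fraction replicate 5, which had the most *Mrc1* and *Cd163* of its group, against at most 38.4 CPM in every other sorted library.

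In the LAG-3-sorted table *Ly6c2* was detected in the 9 libraries with neutrophil transcripts and in none of the 5 without, while *Plac8* was at 0 in 2 of those 9 libraries. Across the 14 sorted libraries, the genes whose log2 CPM had the highest Pearson r with *Ly6c2* were *Lcn2* (0.996), *Wfdc21* (0.993) and *Serpinb1a* (0.993), and for *Plac8* they were *Crispld2* (0.992), *Nfe2* (0.992) and *Slfn4* (0.991). *Lcn2*, lipocalin-2, is a granule protein of neutrophils and belongs to the neutrophil list. The libraries share the gate and the 5 high-fraction libraries hold almost no count of any of these genes, so these coefficients describe the split between the groups and carry no p. Within the 9 WT and low-fraction libraries the ratio of *Ly6c2* to *Lcn2* counts ranged from 0.0499 to 0.163. In the 7 stage libraries with enough counts it ranged far more widely, from 0.00734 in P140 LAG-3-/- replicate 2 to 0.284 in P140 LAG-3-/- replicate 3.

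For *F13a1* the 3 most similar genes were *F730016J06Rik* (r = 0.937), *Samhd1* (0.926) and *Ahnak* (0.924), and for *Ccr2* they were *Ahnak* (0.871), *F13a1* (0.863) and *Mmp25* (0.863). *Cd163* was closest to *Mgl2* (0.864) and *Mrc1* to *Ep300* (0.889), with *Cd163* (0.843) and *Pf4* (0.842) next. *Ms4a7* was closest to *Golga4* (0.930). In WT replicate 4, which had the highest neutrophil sum of the table, *Ly6c2* was at 44.9 CPM while *F13a1* and *Ccr2* were at 0.380 and 0.253 CPM and *Plac8* at 0. WT replicate 3 had a neutrophil sum of 9429 CPM with *F13a1* at 152 CPM, so *F13a1* and *Ccr2* were not in proportion to the neutrophil list among the WT libraries. In bulk samples such as these, fewer cells of a type and less RNA per cell cannot be told apart.

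**Figure D2:**
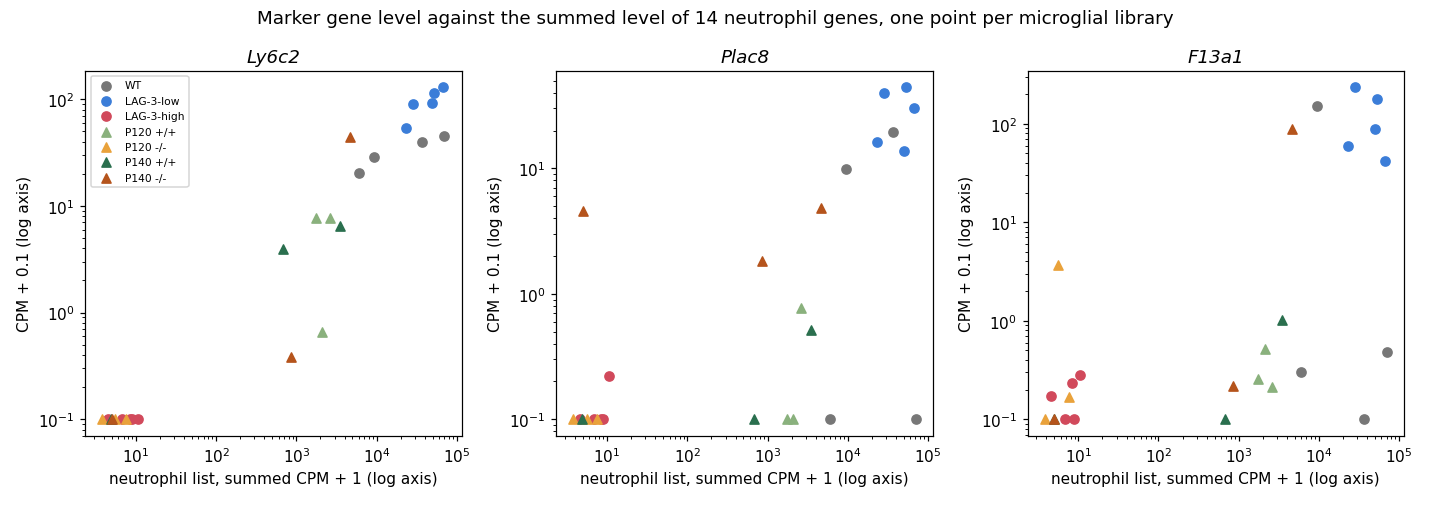
CPM + 0.1 of *Ly6c2*, *Plac8* and *F13a1* against the summed CPM + 1 of 14 neutrophil genes (both axes log), where each point is 1 microglial library; circles are the LAG-3-sorted table and triangles the stage table, each scaled on its own. *Ly6c2* is at 0 in every library with a neutrophil sum under 10 CPM and above 0 in every other library, whereas *F13a1* ranges from 0 to 152 CPM among WT libraries with sums of 6019 CPM or more.

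In the microglia collected by stage, most of the members were close to 0. *Cd163* gave 1 count in 1 of the 12 libraries and 0 in the others. *Lyve1* was detected in 2 libraries, at 0.259 CPM in P120 SOD1G93A/LAG-3+/+ replicate 2 and 3.69 CPM in P140 SOD1G93A/LAG-3+/+ replicate 3. *Mrc1* was detected in 3 libraries of 3 groups, at 2.60 CPM (P120 SOD1G93A/LAG-3-/- replicate 2), 6.10 CPM (P140 SOD1G93A/LAG-3+/+ replicate 1) and 1.81 CPM (P140 SOD1G93A/LAG-3-/- replicate 2). *Pf4* ranged from 0 to 7.80 CPM and was at 0 in 4 libraries, all of them LAG-3-/-. *Cd163*, *Lyve1* and *Vcan* did not pass the filter, which left 7 members tested over 18669 genes.

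*Ms4a7* was the exception. P120 SOD1G93A/LAG-3+/+ replicates 1 to 3 had 14.3, 3.59 and 1.92 CPM, and P140 SOD1G93A/LAG-3+/+ replicates had 133, 120.2 and 96.9 CPM. P120 SOD1G93A/LAG-3-/- replicates had 0.0232, 56.8 and 1.83 CPM, and P140 SOD1G93A/LAG-3-/- replicates 43.8, 45.2 and 31.3 CPM. The 3 P140 LAG-3+/+ libraries were above all others of the table, and the P120 LAG-3-/- group was split by its replicate 2. *Ms4a7* was called higher at P140 than at P120 in LAG-3+/+ microglia (log2 fold change 4.14 with SE 1.58, edgeR adjusted p = 0.0909). This call sat near the threshold of 0.1, and leaving out 1 library at a time gave an edgeR adjusted p from 0.0241 to 0.231. Among these omissions it held only when a P120 LAG-3-/- library was the one left out. The call was lost without TMM factors (adjusted p = 0.121, edgeR) and without the filter (adjusted p = 0.280, edgeR), and DESeq2 gave *Ms4a7* no adjusted p.

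At P140 the LAG-3-/- group had a mean of 40.1 ± 7.67 CPM (SD, n = 3) and the LAG-3+/+ group 117 ± 18.2 CPM (SD, n = 3), without overlap. That difference was not called (log2 fold change -1.54 with SE 1.42, edgeR adjusted p = 0.557). The change with age in LAG-3-/- microglia was not called (log2 fold change 1.04, edgeR adjusted p = 0.919), nor was the interaction of genotype and stage (log2 fold change -3.10 with SE 2.02, edgeR adjusted p = 0.521). The disease-associated list summed to 74263 to 136744 CPM in the P140 LAG-3+/+ libraries and 31776 to 60965 CPM in the P140 LAG-3-/- libraries. P120 LAG-3-/- replicate 2, the library of its group with the most *Ms4a7*, had 50432 CPM of the list against at most 13501 CPM in the other 2. The P120 LAG-3+/+ libraries had 22224 to 35790 CPM of the list, which overlaps the P140 LAG-3-/- range. Their *Ms4a7* was at 1.92 to 14.3 CPM, below every P140 LAG-3-/- library. *Apoe*, at a mean of 36201 CPM over this table, led the list. The part of the listed genes in the *Ms4a7* level was not tested. Across the 12 libraries *Ms4a7* was closest to *Ms4a6c* (Pearson r of log2 CPM 0.966), a member of the same family on the wider list, then to *Apoc2* (0.960) and *Cd300lf* (0.949). *Ms4a6c* was at 95.9 to 115 CPM in P140 LAG-3+/+ and 31.2 to 59.8 CPM in P140 LAG-3-/- microglia.

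The monocyte markers and *F13a1* stood out in 1 library, P140 SOD1G93A/LAG-3-/- replicate 3. It held 89.0 CPM of *F13a1*, against at most 3.59 CPM in any of the other 11 libraries. *Ccr2* was at 36.6 CPM in it and at most 3.15 CPM elsewhere. *Ly6c2* was at 44.4 CPM in it and at most 7.57 CPM elsewhere. The same library had the highest neutrophil sum of the table, 4686 CPM, with none of the 14 genes at 0, and 1.64 CPM of *Vcan* against at most 0.154 CPM elsewhere. *Mrc1*, *Cd163*, *Lyve1* and *Pf4* were all at 0 counts in it. The ratio of *F13a1* to *Ccr2* counts was 2.43.

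*Plac8* was at 4.45, 1.74 and 4.73 CPM in P140 LAG-3-/- replicates 1 to 3, above the 0 to 0.666 CPM of the other 9 libraries. The first of these had a neutrophil sum of 4.02 CPM, and 2 of the 3 P120 LAG-3+/+ libraries, with sums of at least 1764 CPM, held no *Plac8*. Its difference between genotypes at P140 was not called (log2 fold change 4.66, edgeR adjusted p = 0.251). *Ly6c2* was at 0.555, 7.54 and 7.57 CPM in P120 LAG-3+/+ replicates 1 to 3 and at 0 counts in all 3 P120 LAG-3-/- libraries. The neutrophil list ran the same way, with 1764 to 2612 CPM in P120 LAG-3+/+ and 2.81 to 6.57 CPM in P120 LAG-3-/- libraries.

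*Ccr2* was called higher in LAG-3-/- than in LAG-3+/+ microglia at P140, where the LAG-3+/+ libraries held at most 2 counts (at least 77.9-fold, edgeR adjusted p = 0.0854). Without P140 LAG-3-/- replicate 3 the bound dropped to 9.53-fold and the edgeR adjusted p was 0.298. Over all such omissions of 1 library the adjusted p lay between 0.0555 and 0.298. The call held without P120 LAG-3-/- replicate 3 and without P140 LAG-3-/- replicate 1, and was lost without any other library. Fitted alone, the 2 groups at P140 gave 0 calls over 15091 genes. Of the 7 members tested with no library left out, *Ccr2* was the 1 called higher, where 7.22% of all genes were called higher in that comparison. *Ms4a7* was likewise the 1 member of 7 called higher between P140 and P120 in LAG-3+/+ microglia, where 11.9% of all genes were called higher. A call in this table needed only an adjusted p under 0.1.

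No member was called by edgeR between genotypes at P120, where 0.0107% of all genes were called, or between ages in LAG-3-/- microglia, where the share was 0%, or for the interaction, where it was 0.171%. At an unadjusted p under 0.05 there were 1, 2 and 3 members of 7 in these 3 comparisons, where the shares of all genes were 2.95%, 8.88% and 13.6%. DESeq2, which called 0.718%, 2.41% and 6.97% of all genes, called *Ly6c2* at P120, *Ly6c2* and *Plac8* between ages in LAG-3-/- microglia, and *Ly6c2* and *Ccr2* for the interaction. With 3 libraries a group and values carried by 1 of them, these counts have little precision.

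**Figure D3:**
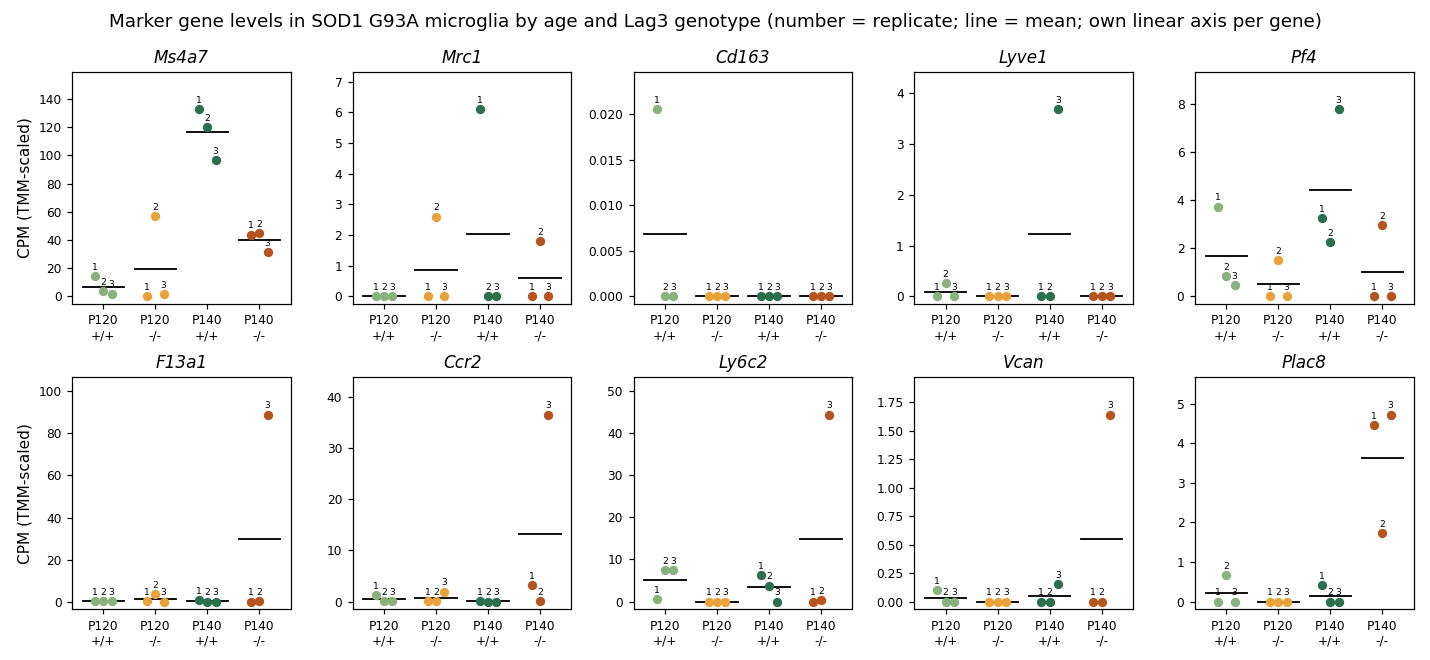
TMM-scaled CPM (vertical axes, linear, one scale per gene) of the 10 marker genes in SOD1G93A microglia at P120 and P140, LAG-3+/+ or LAG-3-/-, where each point is 1 library with its replicate number and the line is the group mean. *Ms4a7* is at 96.9 CPM or more in the 3 P140 LAG-3+/+ libraries, and *F13a1*, *Ccr2* and *Ly6c2* reach their highest values in 1 library, P140 LAG-3-/- replicate 3.

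From the wider lists, 3 of 16 other border macrophage genes were called higher and 4 lower at P140 than at P120 in LAG-3+/+ microglia, where 11.9% of all genes were higher and 15.5% lower, with a median log2 fold change of 1.07 against -0.22 over all genes. *Stab1*, *Maf* and the adaptor gene *Dab2* were among the lower ones, and *Cd36*, a fatty acid receptor gene, among the higher ones. Of 18 other monocyte genes, 3 were higher and 1 lower (median -1.37). Lysozyme, *Lyz2*, was at 1638 to 2406 CPM at P120 and 5897 to 10882 CPM at P140 (edgeR adjusted p = 0.00927), and microglia in disease are known to express it. Between genotypes at P140, *Dab2*, *Fn1* and *Itgal* were the genes of these lists called, all higher in LAG-3-/- microglia. Over all genes, 7.22% were called higher and 3% lower in that comparison.

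In whole lumbar cord at P140 the members were read against all the cells of the tissue, and 6 passed the filter: *Ms4a7*, *Mrc1*, *Cd163*, *F13a1*, *Ly6c2* and *Vcan*. None of them was called, where 7.52% of the 17702 genes tested were called in either direction. DESeq2 called 0 members, where it called 7.18% of all genes. At an unadjusted p under 0.05 in edgeR there were 2 members of 6, where 47.7% of all genes stood at that level. Both of these passed an adjusted p under 0.1 but fell short of the minimum fold change. With no minimum fold change, 23.9% of all genes were called lower in LAG-3-/- cord.

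*Vcan* was at 52.4, 44.9 and 51.8 CPM in LAG-3+/+ cord and at 25.8, 27.3 and 29.5 CPM in LAG-3-/- cord. The groups did not overlap (log2 fold change -0.85 with SE 0.11, edgeR adjusted p = 0.000361), and the adjusted p stayed between 0.000490 and 0.00343 whichever library was left out. A list of 8 oligodendrocyte precursor genes summed to 884 to 976 CPM in LAG-3+/+ and 780 to 887 CPM in LAG-3-/- cord. The other 3 monocyte markers were at most 1.27 CPM in every cord library. Astrocyte genes were not among the lists, and the part of any cell type in the cord level of *Vcan* was not tested.

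*Ms4a7* was at 4.74, 2.36 and 3.23 CPM in LAG-3+/+ and at 1.998, 2.17 and 1.15 CPM in LAG-3-/- cord. All 3 LAG-3-/- libraries were below the lowest LAG-3+/+ library (log2 fold change -0.96 with SE 0.32, edgeR adjusted p = 0.0328). The adjusted p was 0.143 without LAG-3+/+ replicate 1 and 0.111 without LAG-3-/- replicate 3. Without TMM factors the log2 fold change was -1.11, past the minimum of 1. The homeostatic microglial list was lower too, at 683 to 921 CPM in LAG-3-/- against 952 to 1216 CPM in LAG-3+/+ cord, and the part of microglial number in the *Ms4a7* level was not tested.

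*Mrc1*, *Cd163* and *F13a1* moved together across the cord libraries, and 1 library decided them. *Mrc1* was at 4.03, 3.18 and 2.92 CPM in LAG-3+/+ and at 0.913, 4.21 and 0.749 CPM in LAG-3-/- replicates 1 to 3. *Cd163* was at 1.57, 1.12 and 1.32 CPM and at 0.400, 2.17 and 0.549 CPM in the same order. *F13a1* was at 2.09, 2.06 and 1.60 CPM and at 0.571, 2.64 and 0.549 CPM. In each case LAG-3-/- replicate 2 was the highest library of all 6, and the other 2 LAG-3-/- libraries were the lowest.

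With all 6 libraries the adjusted p from edgeR was 0.389 for *Mrc1*, 0.686 for *Cd163* and 0.451 for *F13a1*. Without LAG-3-/- replicate 2, *Mrc1* fell by 2.02, *Cd163* by 1.48 and *F13a1* by 1.76 on the log2 scale (adjusted p from edgeR 0.00219, 0.0222 and 0.00596), and 4 members were called lower, *Ms4a7* being the fourth, where 3.04% of all genes were called lower in that fit. That library also had 405 CPM of a list of 5 fibroblast genes, led by *Col1a2* and *Dcn*, against 56.7 to 70.9 CPM in the other 5 libraries. Its sum of the neutrophil list, led in cord by *Mmp9* and *Lcn2*, was 29.1 CPM against at most 12.7 CPM. Fibroblasts of the cord lie mainly in the meninges and around vessels, where border macrophages also lie. How much meningeal tissue each library held is not given in the sources used here, and its part in these levels was not tested. *Cd163* (chromosome 6, 124281606 to 124307560, GRCm39) lies 574 kb from the targeted gene *Lag3*, so a difference in its LAG-3-/- level cannot be told apart from one that came with the 129-derived flank.

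**Figure D4:**
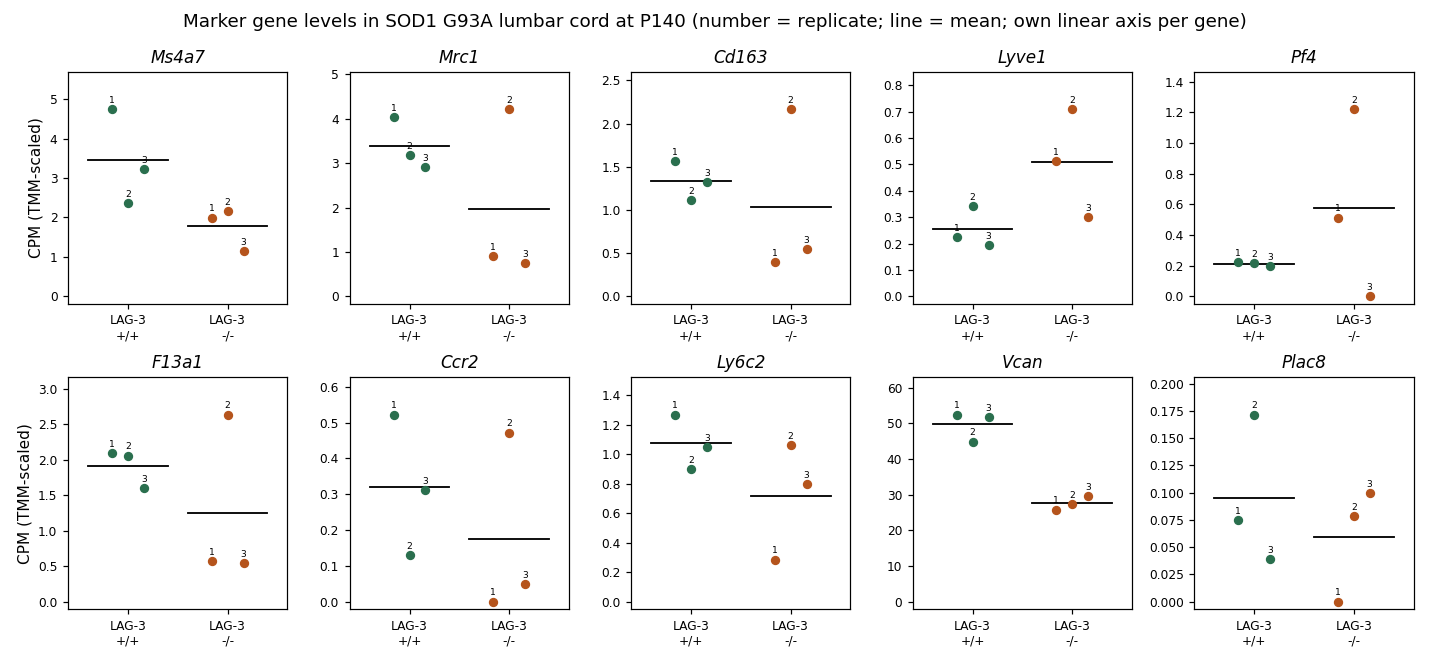
TMM-scaled CPM (vertical axes, linear, one scale per gene) of the 10 marker genes in SOD1G93A lumbar cord at P140, LAG-3+/+ or LAG-3-/-, where each point is 1 library with its replicate number and the line is the group mean. *Vcan* separates the genotypes, while *Mrc1*, *Cd163* and *F13a1* are highest in LAG-3-/- replicate 2 and lowest in LAG-3-/- replicates 1 and 3.

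The other 4 members were close to the limit of detection in cord. *Lyve1* ranged from 0.195 to 0.709 CPM, *Pf4* from 0 to 1.22 CPM, *Ccr2* from 0 to 0.523 CPM and *Plac8* from 0 to 0.172 CPM, the highest of which is 4 counts. *Lyve1* and *Pf4*, like *Mrc1*, had their highest value in LAG-3-/- replicate 2. *Ly6c2* was at 0.901 to 1.27 CPM in LAG-3+/+ and 0.285 to 1.06 CPM in LAG-3-/- cord (edgeR adjusted p = 0.328).

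**Figure D5:**
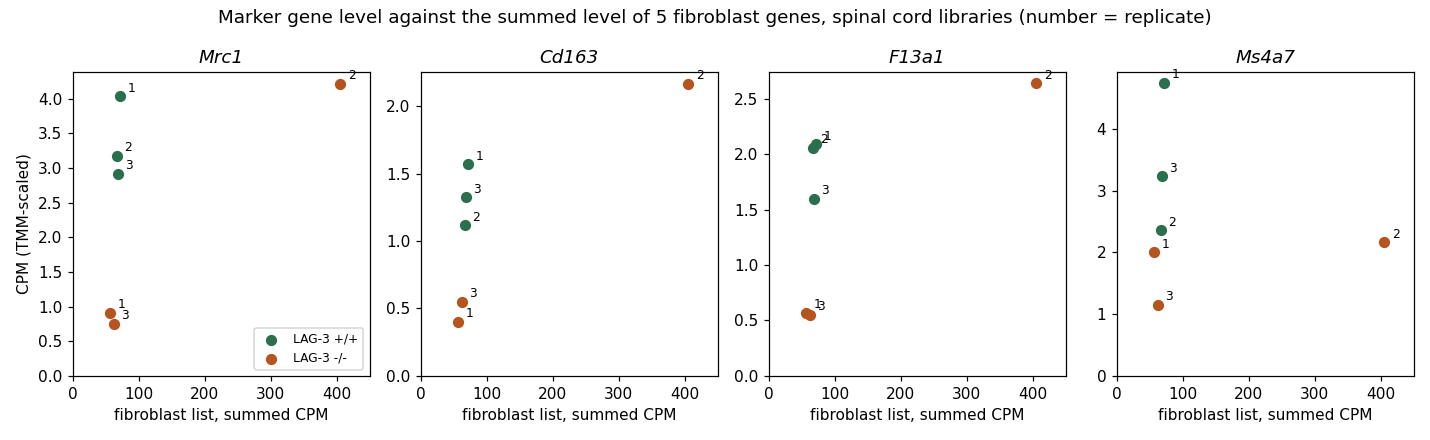
CPM of *Mrc1*, *Cd163*, *F13a1* and *Ms4a7* (vertical axes, linear from 0) against the summed CPM of 5 fibroblast genes (horizontal axes, linear) in the 6 cord libraries, each point 1 library with its replicate number. LAG-3-/- replicate 2 stands at 405 CPM of fibroblast genes, and *Mrc1*, *Cd163* and *F13a1* are highest in it, whereas its *Ms4a7* level of 2.17 CPM is below every LAG-3+/+ library.

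Among 15 other border macrophage genes tested in cord, 4 were called lower in LAG-3-/- and 0 higher, where 3.15% of all genes were called lower, with a median log2 fold change of -0.44 against 0.00 over all genes. They were *Siglec1*, *Dab2*, *Colec12* and *Ms4a6c*, with log2 fold changes from -1.95 to -1.04 and edgeR adjusted p from 0.000381 to 0.00398. *Siglec1* was at 11.4, 6.35 and 7.83 CPM in LAG-3+/+ and at 1.71, 2.36 and 2.50 CPM in LAG-3-/- cord, so the groups did not overlap with or without replicate 2. Unlike *Mrc1*, none of the 4 genes was highest in LAG-3-/- replicate 2. Among 12 other monocyte genes, the integrin genes *Itgal* and *Itga4* were called lower and 0 higher (median -0.54).

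The members' promoters were searched for 2 motifs of factors that act in macrophages. The core of the PU.1 site was spelled GAGGAA and the half-site of MAF factors TGCTGA, on both strands, and no occurrence of one overlapped the other. RefSeq promoters (GRCm38.p6, 250 bases before to 50 after each start) were at hand for 9 of the 10 members. The PU.1 core was found for 6 of them, *Ms4a7*, *Mrc1*, *Pf4*, *F13a1*, *Ly6c2* and *Plac8*, counting a member when any of its promoters held it. Per promoter it was in 8 of the members' 13, since 4 members had 2 promoters each, and in 28.3% of all 32851 promoters of that length. The 2 promoters of *Ly6c2* overlap and hold the same 2 matches, so these matches are counted in both. The MAF half-site was found for 0 of the 9, and in 19.5% of all promoters. The pair with opposite distributions in the LAG-3-sorted microglia is shown, with the PU.1 core in capitals:
Ms4a7, chr19:11336097-11336396, minus strand: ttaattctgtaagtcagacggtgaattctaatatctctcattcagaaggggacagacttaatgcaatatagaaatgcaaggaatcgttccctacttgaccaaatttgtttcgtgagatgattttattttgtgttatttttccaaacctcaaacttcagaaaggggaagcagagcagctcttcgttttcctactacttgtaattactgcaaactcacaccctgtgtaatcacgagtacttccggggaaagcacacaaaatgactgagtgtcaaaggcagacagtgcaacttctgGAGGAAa
Ly6c2, chr15:75111922-75112221, minus strand: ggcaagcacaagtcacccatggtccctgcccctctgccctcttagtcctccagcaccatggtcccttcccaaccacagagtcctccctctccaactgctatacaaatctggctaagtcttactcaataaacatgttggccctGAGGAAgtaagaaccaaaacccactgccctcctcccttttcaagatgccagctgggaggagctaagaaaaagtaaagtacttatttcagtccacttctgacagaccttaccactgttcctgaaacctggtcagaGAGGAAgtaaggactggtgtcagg
The *Ms4a7* window holds 1 match and the *Ly6c2* window 2, and the other promoter of *Ms4a7* holds 0. A match is a string of letters and not a measured site, and no binding was measured here.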

How the data were processed

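Per the labels and the study's methods, RNA of sorted microglia was made into full-length SMART-seq libraries, without strand information, and cord RNA into directional NEBNext libraries. The submitters' processing notes name Trim Galore 0.6.7, Salmon 1.9.0 with GRCm39 and R 4.2.1; the annotation release is not given in the sources used here. The deposited values are Salmon's estimated counts per gene, summed from transcripts by the authors with tximport, with no normalization. Reads shared by near copies were divided by Salmon's model.

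Estimated counts were rounded and tested with edgeR 4.0.16 (robust quasi-likelihood F-test, TMM factors, filterByExpr with a minimum count of 10 and total of 15, R 4.3.3), 1 fit per table over all its groups, with Benjamini-Hochberg adjustment over 16508, 18669 or 17702 genes. Calls followed the study's thresholds, an adjusted p under 0.1 and, outside the stage table, a log2 fold change beyond 1 in size. SE is the log2 fold change over the root of F. Symbols came from GENCODE vM39 by Ensembl ID; 66 to 71 IDs per table had no entry, holding at most 0.0514% of counts. A fold against a group with at most 3 counts per library is a bound set at 3 counts. Levels were compared between genes per kilobase of merged exons.

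The members and lists were chosen with earlier results of these data known. Besides the members, the genes named were at most 4 called genes of each wider list per comparison, the leading genes of the other lists, and for each member up to 3 genes with the highest correlation among genes with a mean of at least 5 CPM; *Lag3*, *Ly6c1*, *Lcn2* and *Mgl2* were added for context, and further list genes named with levels were chosen after their values were seen. One gene that this rule names is not reported here. One symbol of the homeostatic list, *Fcrls*, was not matched. The scripts were tested on simulated data. Alternatives were RLE factors, no TMM factors, 2 other filters, DESeq2 1.42.0, an adjusted p under 0.05, another minimum fold, sex or the replicate number as a covariate, fits of 2 groups alone, and each library left out.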

Additional observations from a re-analysis of the deposited data

Results flagged for a closer look

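In groups of 4 or 5 libraries, the gap between the extreme library and its neighbour was set against the group's range for each member that varied (25 groups tested by Dixon's criterion at the 95% level). Of these, 7 passed, where chance flags about 1 in 20 groups if values spread normally, which counts with many zeros do not. For *Vcan* and *Plac8* below all other libraries of the group were at 0, so any count would have passed. In WT replicate 3, *Pf4* was at 116 CPM, *F13a1* at 152 CPM and *Ccr2* at 96.6 CPM, each far above the next WT library (19.7, 0.380 and 0.348 CPM). In the low fraction, *Cd163* reached 11.1 CPM in replicate 5 (next 0.825 CPM) and *Vcan* 6.19 CPM in replicate 1 (all others 0). In the high fraction, *Pf4* reached 5.51 CPM in replicate 1 (next 2.33 CPM), and *Plac8* was at 0.123 CPM in replicate 3, which is 2 counts. The 3 values of WT replicate 3 are in 1 library and are not separate events.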

How the results depend on the processing

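Of 449 member fold changes recomputed under other settings, 391 kept their direction and side of the threshold, 31 lost a call, 23 gained one and 4 changed sign; 420 of 421 group means moved by less than 1 SD. Changes of setting moved the counts of members called as follows; the cause was not tested. Between the fractions (3 called) DESeq2 gave 6, the 2 groups alone 5, and WT replicates 1 and 3 left out together 5. Over all genes these fits called 988 of 16508, 1450 of 14651 and 883 of 18698, against 576 of 16508 in the main fit. For the high fraction against WT (5 called) the 2 groups alone gave 1 and a replicate block 3, and single libraries left out gave 4 to 8. Over all genes the 2 groups alone called 2663 of 14374 and the block 3009 of 16508, against 4464 of 16508 in the main fit. Fits with a single library left out called 3612 to 6078 genes. WT replicates 1 and 3 left out together again gave 5 there, but 2 lower (*Ly6c2*, *Plac8*) and 3 higher (*Ms4a7*, *Pf4*, *Ccr2*). That fit called 4954 of all 18698 genes, 2289 higher and 2665 lower. For the low fraction against WT (1 called) DESeq2 gave 2, WT replicates 1 and 3 left out together 5, and single libraries 1 to 3. Over all genes these called 4704 of 16508, 4011 of 18698 and, over single libraries, 2852 to 5775, against 3614 of 16508 in the main fit. *Ccr2* in the high fraction against WT changed sign to a log2 fold change of 0.85 with the replicate block, 3.47 without WT replicates 1 and 3, and 4.18 without replicate 3 (-3.24 to 4.18 over single libraries). Leaving out both WT replicates was chosen after the data were seen, and *Cd163* and *Lyve1* then gave no value against WT.

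In the stage table the genotype comparison at P140 (1 called) gave 0 with no filter, an adjusted p under 0.05, the replicate block and the 2 groups alone. Over all genes these called 1386 of 38695, 642 of 18669, 814 of 18669 and 0 of 15091, against 1908 of 18669 in the main fit. P140 against P120 in LAG-3+/+ microglia (1 called) gave 0 with no TMM factors, no filter, DESeq2, an adjusted p under 0.05 and the replicate block. Over all genes these called 5091 of 18669, 3903 of 38695, and 6644, 3532 and 4429 of 18669, against 5118 of 18669 in the main fit. Single libraries gave 0 to 1 in both. Those fits called 95 to 4139 of all genes between genotypes at P140 and 3218 to 5598 between ages in LAG-3+/+ microglia. DESeq2 gave 1 at P120, 2 between ages in LAG-3-/- microglia and 2 for the interaction (0 called in each). It called 134, 449 and 1301 of 18669 genes there. In cord (0 called) no TMM factors gave 1, no filter 1, no minimum fold change 2 and single libraries 0 to 4. Over all genes these cord fits called 1317 of 17702, 1759 of 35412, 8330 of 17702 and, over single libraries, 1215 to 1808. The main fit called 1331 of 17702. *Cd163* in cord ranged from -1.48 to 0.048 on the log2 scale over single libraries, the latter without LAG-3-/- replicate 1.

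Whether equal replicate numbers mark the same animal cannot be told from these libraries. Libraries that share a number had correlations of -0.119 to 0.0674 between their departures from the group mean. Between the low and high fractions the mean correlation was 0.0323 for equal numbers and -0.00808 for other numbers. The replicate block is given only here. Low counts limit *Vcan* in microglia and *Lyve1*, *Pf4*, *Ccr2* and *Plac8* in cord.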
